A study of Homo sapiens with 12 samples.

Results

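The regulators described here are 10 genes, E2F1, E2F2, E2F3, E2F7, E2F8, RB1, RBL1, RBL2, FOXM1 and MYBL2, that were taken by gene symbol from a table of 14828 genes measured by RNA-seq. All 10 were present. The cells were 22Rv1, a human prostate carcinoma cell line, carrying a doxycycline-inducible lentiviral vector for a nontargeting short hairpin RNA (shNT) or for 1 of 2 hairpins against CENPA, the histone H3 variant that marks the centromere (shCENPA1 and shCENPA2). The study describes knockdown against shNT after 72 h of doxycycline at 2 µg/ml, without saying outright that the sequenced shNT cells received it, and the transduced cells had been selected with puromycin. Each hairpin had 2 libraries, each run in lanes 7 and 8, and the labels number the 4 runs of a hairpin as replicates. The lanes of a library were averaged, so that n = 2 libraries per hairpin. No source used here says whether the libraries came from separate cultures, so p-values measure the spread between these libraries.

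E2F proteins bind DNA with a DP partner and switch on genes for DNA replication at the G1/S boundary. The pocket proteins RB1, RBL1 (p107) and RBL2 (p130) bind E2F proteins and hold these genes down until cyclin-dependent kinases phosphorylate them. E2F1, E2F2 and E2F3 are the activators, whereas E2F7 and E2F8 are atypical E2Fs, which bind without DP and repress. Later in the cycle MYBL2 (B-Myb) joins the MuvB complex and, with the forkhead factor FOXM1, switches on genes for G2 and mitosis. In retinoblastoma and in advanced prostate cancer RB1 can be lost.

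Several of these regulators are themselves known E2F target genes, so their promoters were searched for E2F-site letters. RefSeq promoters (GRCh38.p14, 250 bases before to 50 after a start) gave 10 windows for 8 of the genes. E2F8 and FOXM1 had no entry, and the RB1 window lies at an internal start, 172706 bases into the annotated gene. The starts of some other windows also lie inside the annotated gene. They are 494 and 1642 bases in for RBL2, 1735 for the second E2F3 window and 95 for MYBL2. The letters searched were TTTCCCGC, TTTCGCGC, TTTGCCGC and TTTGGCGC for E2F, and TTTGAA and TTCGAA for the cell cycle homology region (CHR), the element that MuvB binds, on both strands. The 120 bases before the start are shown for the genes with an E2F match and for E2F7 and MYBL2, which held none of these exact E2F letters. Other forms of an E2F site were not searched for, so E2F7 and MYBL2 may still hold one. Capitals mark E2F matches, and the TTTGAA in E2F3 marks a CHR match. The E2F1 promoter (chr20:33686386-33686505, minus strand), the E2F2 promoter (chr1:23531234-23531353, minus strand), the E2F3 promoter (chr6:20401759-20401878, plus strand), the RBL1 promoter (chr20:37095998-37096117, minus strand), the E2F7 promoter (chr12:77065570-77065689, minus strand) and the MYBL2 promoter (chr20:43666994-43667113, plus strand) read 5′ to 3′ as follows.
E2F1: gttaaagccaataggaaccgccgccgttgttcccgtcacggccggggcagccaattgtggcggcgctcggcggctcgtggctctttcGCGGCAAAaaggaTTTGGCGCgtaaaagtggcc
E2F2: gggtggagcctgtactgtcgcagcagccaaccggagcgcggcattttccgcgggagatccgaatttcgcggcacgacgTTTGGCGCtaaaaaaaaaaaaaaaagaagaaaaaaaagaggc
E2F3: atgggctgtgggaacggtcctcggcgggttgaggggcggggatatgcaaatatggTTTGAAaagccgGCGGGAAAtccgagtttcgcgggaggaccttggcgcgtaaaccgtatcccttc
RBL1: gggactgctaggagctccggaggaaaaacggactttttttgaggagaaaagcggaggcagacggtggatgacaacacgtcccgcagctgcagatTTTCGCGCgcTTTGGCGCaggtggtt
E2F7: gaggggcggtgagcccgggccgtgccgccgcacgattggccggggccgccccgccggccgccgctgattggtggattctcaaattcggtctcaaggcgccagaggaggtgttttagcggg
MYBL2: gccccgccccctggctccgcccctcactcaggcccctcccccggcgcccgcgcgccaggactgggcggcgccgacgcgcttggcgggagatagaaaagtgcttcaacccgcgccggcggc

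The first base of the match lay 33 and 20 bases before the start in E2F1, 42 bases before it in E2F2, 53 in E2F3, and 26 and 16 in RBL1. E2F letters stood in 4 of the 10 windows, against 3.315% of 35116 RefSeq promoters and 4.706% of the 15130 promoters of genes in the table. CHR letters stood in 2 of the 10, in E2F3 and RBL2, against 11.738% of the promoters of genes in the table. The MYB letters TAACNG stood in 0 of the 10 windows and the forkhead letters TAAACA in both RBL2 windows, against 17.634% and 7.964% of the promoters of genes in the table. These are matches of letters, and no binding was measured.

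In brief, 7 of the 10 mRNAs fell with at least 1 of the CENPA hairpins and none rose. E2F1, E2F7, E2F8, FOXM1 and MYBL2 fell by more than 2-fold with both, E2F2 passed the test with shCENPA2 and not with shCENPA1, although it did so there under 6 alternatives, and RBL1 fell by less than 2-fold. E2F3, RB1 and RBL2 did not pass with either hairpin. The level of each gene is given as RPKM, in which reads are divided by gene length and library size, and differences are given on the log2 RPKM scale. A gene passed where limma's adjusted p was under 0.05 (Benjamini-Hochberg over 14624 genes). The libraries held 79172294 to 133074655 reads on genes, and E2F2, the weakest of the regulators, rested on 87 to 343 reads per library, whereas RBL2 rested on 15773 to 23600. In the GENCODE annotation of GRCh38, E2F2 lies at chr1:23506438-23531233, E2F7 at chr12:77021248-77065569, E2F8 at chr11:19224063-19241620 and RBL1 at chr20:36996349-37095997 on the minus strand, and E2F3 at chr6:20401879-20493714, RB1 at chr13:48303744-48599436 and RBL2 at chr16:53433977-53491648 on the plus strand. Exons on the opposite strand overlap those of FOXM1 (ITFG2), RBL2 (AKTIP), E2F8 (CSRP3-AS1) and RBL1 (a long noncoding RNA). The libraries kept the strand, but the strand setting of the counting is not given in the sources used here. Values of these 4 genes may therefore include reads of their neighbours or lack reads from the shared stretches. In such bulk samples, fewer cells in a cell cycle phase and less mRNA per cell cannot be told apart.

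CENPA itself was at 5.52 and 4.54 RPKM in the shNT libraries, at 1.42 and 1.498 with shCENPA1 and at 0.720 and 0.755 with shCENPA2. This is a log2 difference from shNT of -1.78 (SE 0.161) with shCENPA1 and -2.76 (SE 0.161) with shCENPA2. As a check of the cell type, all 8 prostate luminal markers were in the table, with a summed level of 827 to 867 RPKM in shNT, 775 to 813 with shCENPA1 and 779 to 790 with shCENPA2, and 2 of 8 and 5 of 8 of them fell, whereas 1 rose with shCENPA2. Of 8 basal, stromal, immune and neuroendocrine markers, KRT5, KRT14, TP63, COL1A2 and PTPRC were not in the table. The other 3 summed to 23.4 to 24.5 RPKM in shNT, 25.3 to 29.1 with shCENPA1 and 23.5 to 24.7 with shCENPA2. CHGA (chromogranin A) rose with both hairpins, from 0.219 to 0.248 RPKM in shNT to 0.869 to 1.09 and 0.693 to 0.894. Its part in the results was not tested.

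**Figure D1:**
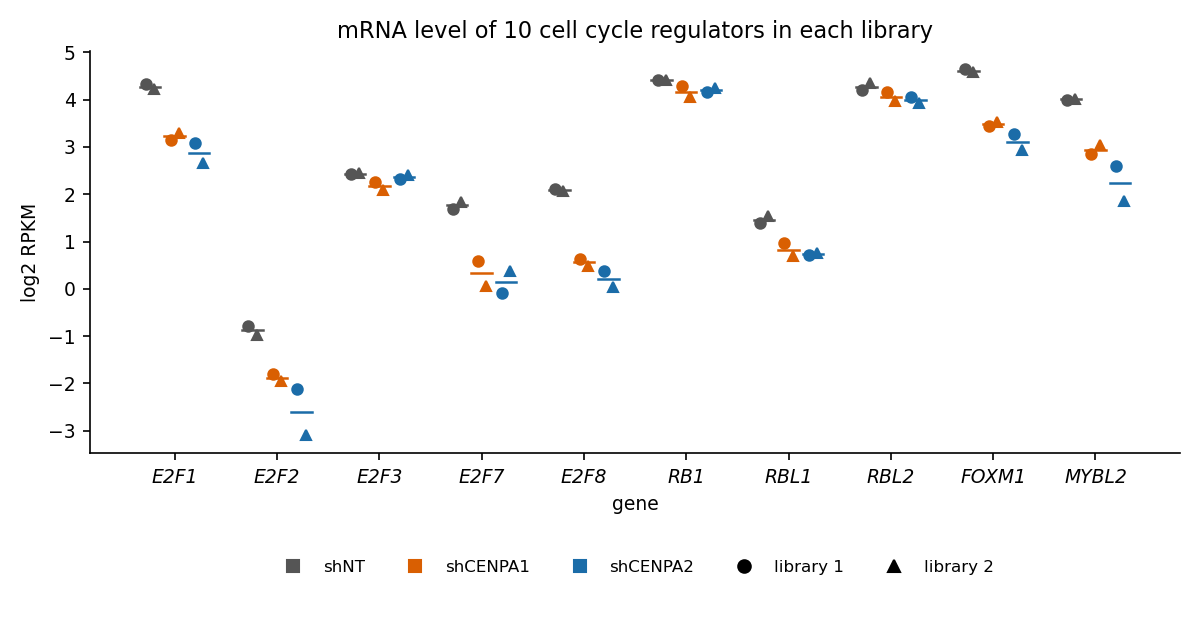
Level of each regulator (log2 RPKM, vertical axis) in every library, by hairpin (colour) and library (circle, library 1, triangle, library 2), with a bar at the mean of both libraries. FOXM1 fell from a mean of 4.62 in shNT to 3.49 and 3.10, whereas E2F3 stayed between 2.09 and 2.45 in the 6 libraries.

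In control cells the regulators spanned a wide range of levels. FOXM1 was highest at 23.96 and 25.1 RPKM, followed by RB1 at 21.4 and 21.5. E2F1 (18.7 and 20.2 RPKM) and RBL2 (18.3 and 20.6) overlapped and could not be ordered. MYBL2 came next at 15.9 and 16.3 RPKM, then E2F3 at 5.39 and 5.45, E2F8 at 4.19 and 4.34, E2F7 at 3.24 and 3.59, RBL1 at 2.64 and 2.89 and E2F2 at 0.510 and 0.581. Apart from E2F1 and RBL2, neighbours in this order did not overlap. With shCENPA1 the highest levels were those of RB1 (16.6 and 19.6 RPKM) and RBL2 (15.6 and 18.01), which overlapped, and FOXM1 came after them at 10.96 and 11.5. With shCENPA2 the same genes led, FOXM1 (7.61 and 9.72 RPKM) overlapped E2F1 (6.31 and 8.46), and MYBL2 (3.63 and 6.05) overlapped E2F3 (5.02 and 5.31). The plot of levels by library shows this change of order.

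Against shNT, 6 of the 10 regulators fell with shCENPA1 and 7 of 10 with shCENPA2, and 0 rose with either. Of all genes tested, 4.45% fell and 2.69% rose with shCENPA1, and 10.5% fell and 8.05% rose with shCENPA2. The median log2 fold change of the regulators was -1.03 with shCENPA1 and -1.46 with shCENPA2, beside 0.003 and 0.012 over all genes. Beyond 2-fold the counts were 5 and 6 of 10, against 1.83% and 4.45% of all genes. Every regulator was lower in both libraries of each CENPA hairpin than in both shNT libraries, which was true of 27.1% of all genes with shCENPA1 and 31% with shCENPA2. Both comparisons share the shNT libraries. Without shCENPA1 library 2, the shCENPA1 count was 3. Where 1 library is left out, here and later, its group keeps a single library, which is assumed to vary like those of the other groups.

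Among the activators, E2F1 carried most of the mRNA in control cells. It was at 20.2 and 18.7 RPKM in shNT, 8.91 and 9.81 with shCENPA1 and 8.46 and 6.31 with shCENPA2. The knockdown libraries were all below the controls, and both shCENPA2 libraries were below both shCENPA1 libraries. The log2 fold change was -1.05 (SE 0.139, adjusted p = 0.00188) with shCENPA1 and -1.41 (SE 0.139, adjusted p = 0.000155) with shCENPA2. E2F1, on the minus strand (chr20:33675477-33686385), is the E2F best known for also inducing apoptosis.

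E2F2 was at 0.581 and 0.510 RPKM in shNT, 0.285 and 0.258 with shCENPA1 and 0.229 and 0.117 with shCENPA2. The 3 groups did not overlap, and stood in the same order as for E2F1. The log2 fold change was -1.01 with shCENPA1 (SE 0.346), which did not pass (adjusted p = 0.124), and -1.73 with shCENPA2 (adjusted p = 0.00779). The lanes of one library differed by up to 0.565 for this gene. The shCENPA1 difference passed without shCENPA2 library 1 (adjusted p = 0.0322) or library 2 (adjusted p = 0.0286), with only shNT and shCENPA1 in the fit (adjusted p = 0.0264), with voom on recovered reads (adjusted p = 0.047) and with 1 added to the RPKM (adjusted p = 0.0435).

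E2F3, which shares the activator role, was at 5.39 and 5.45 RPKM in shNT, 4.77 and 4.27 with shCENPA1 and 5.02 and 5.31 with shCENPA2. All the knockdown libraries were below the controls by a small amount. The log2 fold change was -0.26 with shCENPA1 (95% interval -0.52 to -0.01, adjusted p = 0.219) and -0.07 with shCENPA2 (-0.33 to 0.19, adjusted p = 0.725), and neither passed. E2F3 held E2F letters in its first promoter window, whereas its second window, 1735 bases into the annotated gene, held none.

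The summed activator mRNA was 26.1 and 24.6 RPKM in shNT, 13.97 and 14.3 with shCENPA1 and 13.7 and 11.7 with shCENPA2. E2F3 made up 20.6% and 22.1% of that sum in shNT, 34.2% and 29.8% with shCENPA1 and 36.6% and 45.3% with shCENPA2. The share of E2F1 went from 76.5% ± 0.955 (SD, n = 2) in shNT to 66.1% ± 3.28 and 57.7% ± 5.65. The groups of 2 libraries did not overlap in either share. These sums are a description, with no test.

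Both atypical repressors fell with both hairpins. E2F8 was at 4.34 and 4.19 RPKM in shNT, 1.54 and 1.41 with shCENPA1 and 1.31 and 1.02 with shCENPA2. Its log2 fold change was -1.53 (SE 0.166, adjusted p = 0.000696) and -1.88 (SE 0.166, adjusted p = 8.21e-05), the lowest estimate of the 10 with each hairpin. E2F7 was at 3.24 and 3.59 RPKM in shNT, 1.51 and 1.05 with shCENPA1 and 0.936 and 1.29 with shCENPA2. The libraries of the CENPA hairpins overlapped each other and lay apart from the controls. Its log2 fold change was -1.44 (SE 0.223, adjusted p = 0.00441) and -1.63 (SE 0.223, adjusted p = 0.00102), and the former did not pass without shCENPA1 library 2 (-1.18, adjusted p = 0.0662). The summed mRNA of E2F7 and E2F8 was 7.58 and 7.77 RPKM in shNT, 3.05 and 2.45 with shCENPA1 and 2.24 and 2.32 with shCENPA2. E2F1 mRNA was 2.53 ± 0.184 times that sum in shNT (SD, n = 2), 3.46 ± 0.759 times with shCENPA1 and 3.25 ± 0.743 times with shCENPA2.

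**Figure D2:**
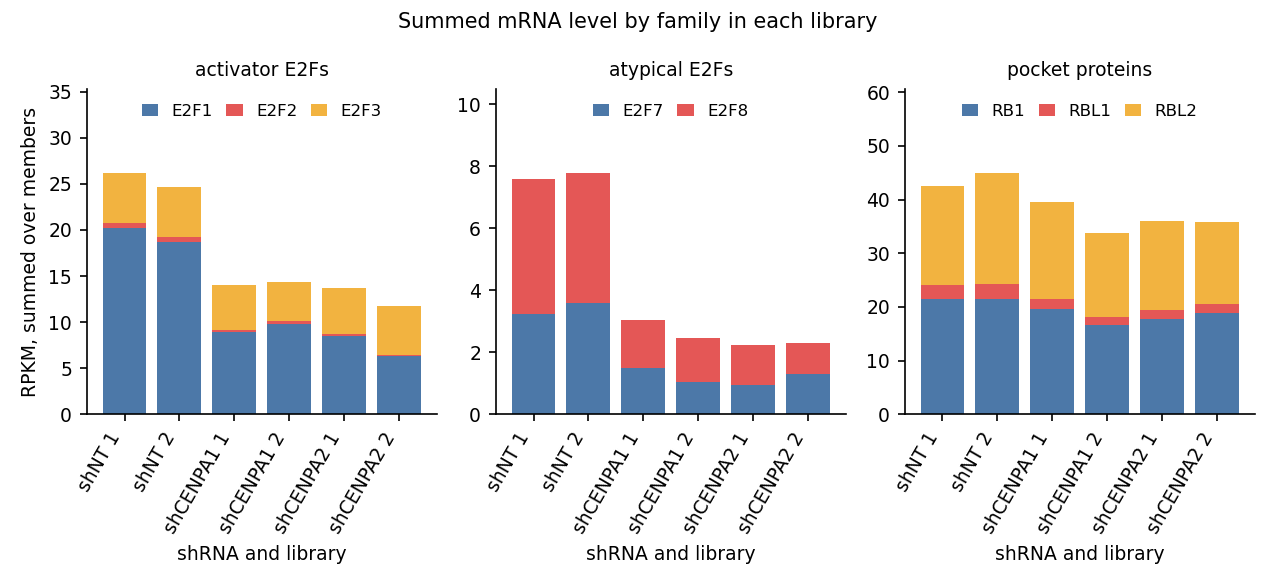
Summed level in RPKM (vertical axis, from 0) of the activator E2Fs, the atypical E2Fs and the pocket proteins in each of the 6 libraries, with bar segments for the members. The atypical sum went from 7.58 and 7.77 RPKM in shNT to between 2.24 and 3.05 in the knockdown libraries, and the pocket protein sum from 42.5 and 44.9 to between 33.8 and 39.6.

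Among the pocket proteins, RBL1 passed where RB1 and RBL2 did not. RBL1, which binds mainly E2F4 and E2F5, was at 2.64 and 2.89 RPKM in shNT, 1.94 and 1.61 with shCENPA1 and 1.63 and 1.70 with shCENPA2. The knockdown libraries lay apart from the controls and the hairpins overlapped. Its log2 fold change was -0.64 (SE 0.156, adjusted p = 0.0394) with shCENPA1 and -0.73 (SE 0.156, adjusted p = 0.011) with shCENPA2. The first was near the threshold and did not pass with any of the 4 shNT or shCENPA1 libraries left out (adjusted p = 0.0567 to 0.375). The second did not pass without shNT library 1 (adjusted p = 0.0501) or library 2 (adjusted p = 0.116).

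RB1, the retinoblastoma protein gene, was at 21.5 and 21.4 RPKM in shNT, 19.6 and 16.6 with shCENPA1 and 17.8 and 18.9 with shCENPA2. RBL2, the pocket protein of quiescent cells, was at 18.3 and 20.6 RPKM, 18.01 and 15.6, and 16.6 and 15.3. Both were a little lower in all knockdown libraries. The log2 fold change of RB1 was -0.25 (95% interval -0.48 to -0.02, adjusted p = 0.188) with shCENPA1 and -0.23 (-0.46 to 0.00, adjusted p = 0.159) with shCENPA2. That of RBL2 was -0.21 (95% interval -0.45 to 0.03, adjusted p = 0.291) and -0.29 (-0.53 to -0.04, adjusted p = 0.0972). Neither gene passed.

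The RBL2 level was 7.03 ± 0.114 times that of RBL1 in shNT (SD, n = 2), 9.47 ± 0.289 times with shCENPA1 and 9.56 ± 0.815 times with shCENPA2, and the knockdown libraries (8.99 to 10.1) did not overlap the controls (6.95 and 7.11). RBL1 made up 6.33% ± 0.163 of the pocket protein mRNA in shNT, 4.85% ± 0.0919 with shCENPA1 and 4.64% ± 0.141 with shCENPA2. The ratio of summed activator E2F to summed pocket protein mRNA was 0.615 and 0.548 in shNT, 0.353 and 0.424 with shCENPA1 and 0.381 and 0.328 with shCENPA2. These ratios compare mRNA and say nothing of protein or of phosphorylation.

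FOXM1 and MYBL2, the regulators of the G2 and mitotic genes, both fell with both hairpins. FOXM1 (chr12:2857680-2877174) was at 25.1 and 23.96 RPKM in shNT, 10.96 and 11.5 with shCENPA1 and 9.72 and 7.61 with shCENPA2. The groups did not overlap. Its log2 fold change was -1.13 (SE 0.121, adjusted p = 0.000683) and -1.51 (SE 0.121, adjusted p = 4.81e-05), and it passed against shNT under every alternative run.

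MYBL2 (chr20:43667019-43716495) was at 15.9 and 16.3 RPKM in shNT, 7.23 and 8.21 with shCENPA1 and 6.05 and 3.63 with shCENPA2. The groups did not overlap, and shCENPA2 library 2 stood well below the rest. The log2 fold change was -1.06 (SE 0.200, adjusted p = 0.0128) with shCENPA1 and -1.78 (SE 0.200, adjusted p = 0.000334) with shCENPA2. The shCENPA1 call was lost without shCENPA1 library 1 (adjusted p = 0.108) or library 2 (adjusted p = 0.112). The ratio of FOXM1 to MYBL2 RPKM was 1.58 and 1.47 in shNT, 1.52 and 1.40 with shCENPA1 and 1.61 and 2.09 with shCENPA2.

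**Figure D3:**
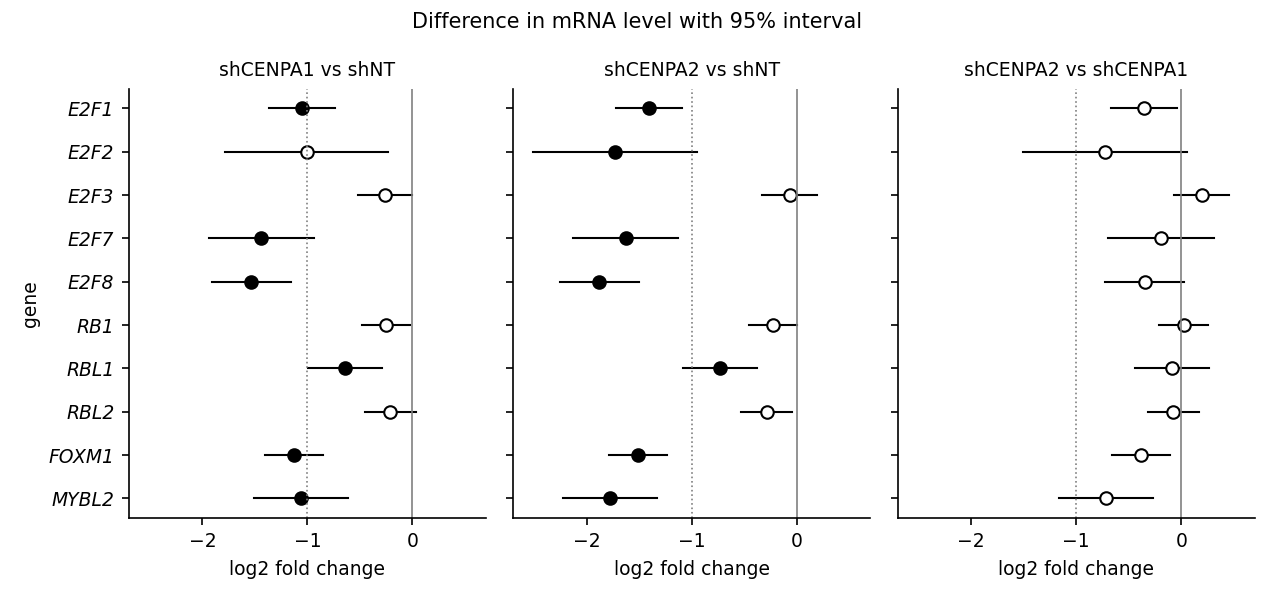
Log2 fold change of each regulator (horizontal axis) with its 95% interval from limma, for shCENPA1 and shCENPA2 against shNT and for shCENPA2 against shCENPA1. Filled circles passed an adjusted p of 0.05 and the dotted line marks 2-fold lower. E2F8 was lowest against shNT at -1.53 and -1.88, and no regulator passed between the CENPA hairpins.

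The CENPA hairpins were compared with each other next, since CENPA mRNA was lower with shCENPA2 than with shCENPA1 by a log2 difference of -0.98 (adjusted p = 0.0209). By limma, 0 of the 10 regulators passed this comparison, in which 1.42% of all genes passed in either direction. At an unadjusted p under 0.05 there were 3 (E2F1, FOXM1 and MYBL2), and voom on the recovered reads passed 1. The share of all genes under either of these rules is not given here, so neither count can be set against the 1.42%. The shCENPA2 minus shCENPA1 difference was -0.72 for MYBL2 (95% interval -1.17 to -0.27, adjusted p = 0.147), -0.39 for FOXM1 (-0.66 to -0.11, adjusted p = 0.198) and -0.36 for E2F1 (-0.67 to -0.04, adjusted p = 0.31). E2F3 was 0.19 higher (-0.07 to 0.45, adjusted p = 0.518). The intervals of E2F2 (-1.50 to 0.05) and E2F7 (-0.69 to 0.31) leave room for a sizeable difference in either gene. Without shCENPA2 library 1, MYBL2 (adjusted p = 0.0088) and FOXM1 (adjusted p = 0.0403) passed, but shCENPA2 then rests on library 2 alone, the lower of its libraries for both genes, and the spread comes from the other groups.

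The spread within shCENPA2 was uneven across the regulators. From library 1 to library 2 the log2 level differed by -0.97 for E2F2, -0.74 for MYBL2, -0.42 for E2F1 and -0.35 for both FOXM1 and E2F8, but by 0.47 for E2F7. E2F1, MYBL2, E2F2 and FOXM1 have the highest GC content of the 10 in their transcripts (61.6%, 60.5%, 57.4% and 55.7%, beside a median of 47.7% over all genes), and E2F8 has 44.7%. Over 12886 genes the library 2 minus library 1 difference had a Spearman rho with GC content of -0.518 in shCENPA2, -0.333 in shNT and 0.299 in shCENPA1. With gene length, over 14624 genes, the rho was -0.384 in shCENPA1, 0.145 in shNT and 0 in shCENPA2. The log2 fold changes against shNT also followed GC content, with a rho of 0.346 for shCENPA1 and 0.218 for shCENPA2. These are descriptions across genes of the same libraries. With the trends on length and GC removed, an alternative chosen after seeing the data, 7, 8 and 1 of the 10 regulators passed in the 3 comparisons. By limma, E2F2 with shCENPA1 (adjusted p = 0.0477), RBL2 with shCENPA2 (adjusted p = 0.0323) and FOXM1 between the hairpins (adjusted p = 0.046) were added. The share of all genes passing in that fit is not given here, so these counts stand without a background.

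Few of the other E2F, DP and MYB genes passed. Of 7, 1 fell with shCENPA1, and 1 fell and 1 rose with shCENPA2. Over all genes tested, 4.45% fell with shCENPA1, and 10.5% fell and 8.05% rose with shCENPA2. MYBL1 (A-Myb) fell from 1.38 and 1.71 RPKM in shNT to 0.741 and 0.542 with shCENPA1 and 0.631 and 0.619 with shCENPA2 (log2 fold change -1.28, adjusted p = 0.0083, and -1.30, adjusted p = 0.00351). TFDP2, a DP partner, rose with shCENPA2 by 0.39 (adjusted p = 0.045) and was 0.18 higher with shCENPA1 (adjusted p = 0.418). The log2 fold changes were 0.12 and 0.03 for E2F4, 0.18 and -0.04 for E2F5, -0.14 and -0.21 for E2F6, -0.10 and -0.20 for TFDP1 and -0.17 and 0.03 for MYB, and none of these passed. Without shNT library 2 or shCENPA1 library 2 the shCENPA1 count was 0, and without either shNT library or either shCENPA2 library the shCENPA2 count was 1.

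Of the 5 MuvB core subunits, 1 fell with each hairpin, beside 4.45% of all genes with shCENPA1 and 10.5% with shCENPA2. For LIN9 the log2 fold changes were -0.61 (adjusted p = 0.017) and -0.86 (adjusted p = 0.0013). LIN54, which contacts the CHR, was at -0.41 (adjusted p = 0.0598) and -0.32 (adjusted p = 0.0759). LIN52 was at -0.32 with each, RBBP4 at -0.22 and -0.20 (adjusted p = 0.182 and 0.143), and LIN37 at 0.29 and 0.25 (adjusted p = 0.526 and 0.525). The shCENPA1 count was 0 without any 1 of the shNT or shCENPA1 libraries and 2 without either shCENPA2 library. The shCENPA2 count was 2 without shCENPA2 library 2.

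Among the kinases that phosphorylate pocket proteins, their cyclins and their inhibitors, 5 of the 14 genes in the table fell with each hairpin and 0 rose. Of all genes tested, 4.45% fell with shCENPA1 and 10.5% with shCENPA2. Whether or not they passed, the estimates went both ways. With shCENPA1 8 were negative and 6 positive, and with shCENPA2 9 were negative and 5 positive. Only genes that passed are named below. CCND2 was not in the table. CCNE2, a cyclin partner of CDK2, fell (log2 fold change -0.98 and -1.38, adjusted p = 0.00137 and 7.87e-05), CDK2 fell likewise (-0.70 and -1.001, adjusted p = 0.00106 and 6.2e-05), and CCND1 (cyclin D1) did so too (-0.60 and -0.67, adjusted p = 0.0145 and 0.00375). Among inhibitors, CDKN2C (p18) fell with both (-0.45 and -0.56, adjusted p = 0.0233 and 0.00372), CDKN1A (p21) fell with shCENPA1 (-0.47, adjusted p = 0.0307) and was at -0.23 with shCENPA2 (adjusted p = 0.185). CDKN1C (p57) fell with shCENPA2 (-0.999, adjusted p = 0.0111) and was at -0.63 with shCENPA1 (adjusted p = 0.123). With 1 library left out the shCENPA1 count went to 2 without shNT library 1, shNT library 2 or shCENPA1 library 2 and 3 without shCENPA1 library 1, and the shCENPA2 count to 2 without shNT library 1.

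Most of the target genes fell as well. Of 30 G1/S targets of E2F, 27 fell with shCENPA1 and 30 with shCENPA2, with a median log2 fold change of -1.01 and -1.20. The share of all genes that fell was 4.45% and 10.5%. The log2 fold changes were -1.57 and -1.93 for CLSPN (claspin, a checkpoint adaptor) and -1.25 and -1.71 for RRM2 (a ribonucleotide reductase subunit). At the other end were the DNA polymerase genes POLD1, at -0.39 (adjusted p = 0.228) and -0.59 (adjusted p = 0.0434), and POLE, at -0.30 (adjusted p = 0.205) and -0.50 (adjusted p = 0.0235). E2F letters stood in 18 of 41 promoter windows of this list, against 4.706% of the promoters of genes in the table.

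Of 30 G2/M targets of FOXM1 and of MYBL2 with MuvB, 30 fell with each hairpin, and the median was -1.25 and -1.59. The share of all genes that fell was 4.45% with shCENPA1 and 10.5% with shCENPA2. HMMR (a spindle protein) was at -1.45 and -1.80, and ASPM (a spindle pole protein) at -1.57 and -1.67. The smallest changes were those of CDC25B, a phosphatase that activates CDK1, at -0.69 and -0.68, and of CKS1B, a CDK subunit, at -0.50 and -0.81. CHR letters stood in 20 of 34 windows of this list, against 11.738% of the promoters of genes in the table. Between the CENPA hairpins, 1 of 30 G1/S and 3 of 30 G2/M targets were lower with shCENPA2. Of all genes, 1.42% passed this comparison in either direction. The G1/S count was 0 without any 1 of the shNT or shCENPA1 libraries or shCENPA2 library 2 and 3 without shCENPA2 library 1. The G2/M count was 1 without either shNT library and 0 without either shCENPA1 library or shCENPA2 library 2. The lists were written from general knowledge with earlier results of these data known.

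**Figure D4:**
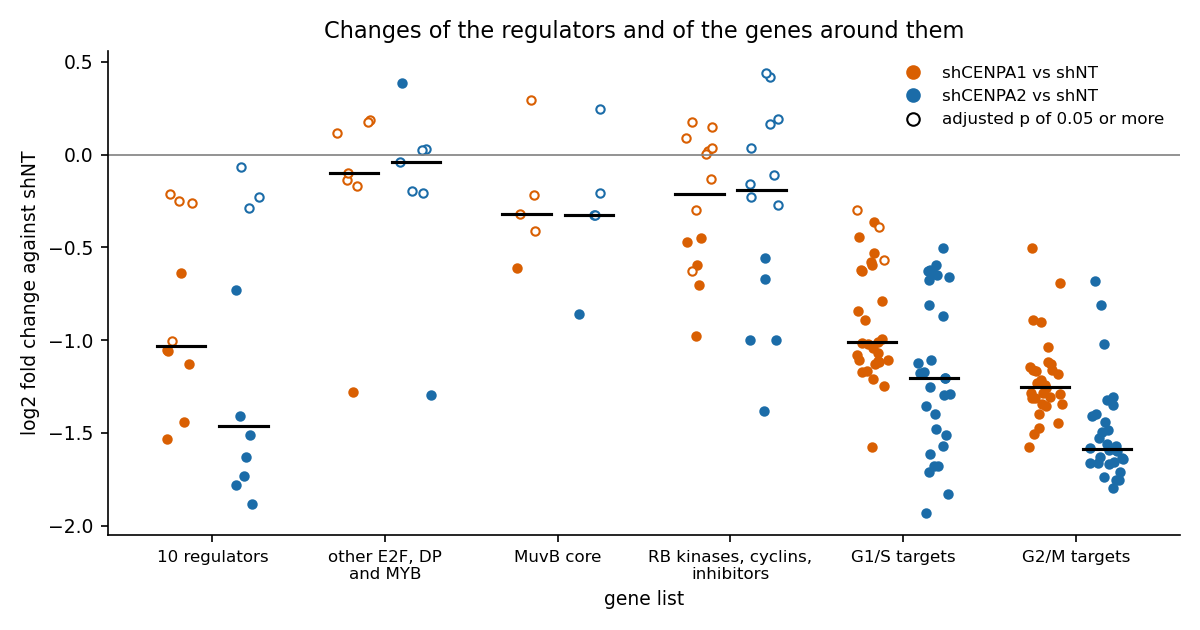
Log2 fold change against shNT (vertical axis) of the 10 regulators and of 5 gene lists, 1 point per gene, with shCENPA1 and shCENPA2 side by side, open points where adjusted p was 0.05 or more, and a bar at each median. The medians of the G2/M targets were -1.25 and -1.59, and those of the other E2F, DP and MYB genes were -0.10 and -0.04.

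For each regulator, the genes with the most similar pattern were found by the root mean square difference from it over the 6 libraries, after the shNT mean of each gene was subtracted. E2F1 was nearest to MCM5 (0.045 on the log2 scale) and KIFC1 (0.047), FOXM1 to CDCA8 (0.049) and DEPDC1B (0.066), and MYBL2 to DUSP2 (0.078) and PKMYT1 (0.089). PKMYT1 was also second for E2F2 (0.105), after MTFR2 (0.088). E2F7 was nearest to KNL1 (0.087) and XRCC2 (0.101), and E2F8 to FGFR4 (0.089) and CLSPN (0.094). RBL1 was nearest to NCAPD3 (0.032) and RMI1 (0.038). For the regulators that did not pass, the nearest were SLC2A12 (0.013) and SOCS4 (0.026) for E2F3, SP1 (0.015) and CTDSPL2 (0.019) for RB1, and ZNF441 (0.029) and ASXL1 (0.032) for RBL2. That these genes also differed little from shNT follows from how they were chosen. All of these genes share the same 6 libraries, so the likeness is a description.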

How the data were processed

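RNA-seq of 22Rv1 cells was analysed. Per the submitters' processing notes and the study's methods, strand-specific libraries were trimmed (Trim Galore), mapped to hg38 (STAR) and counted per gene (HTSeq) by the authors, who made their own calls with edgeR, with versions not given in the sources used here. The deposited values are log2 RPKM of 14828 genes in each run. A prior of 0.25 reads is part of these values, which draws changes of weak genes towards 0. The steps between values gave back whole reads for 14828 of 14828 genes (largest distance from a whole read 4.9e-08). Lanes of a library differed little beyond sampling (chi-square per gene 1.24 to 1.31, against 26.5 to 80.1 between libraries) and were averaged.

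limma 3.58.1 (R 4.3.3) was run on the 14624 genes whose log2 RPKM averaged -3 or more (eBayes with trend, 6 libraries, 3 groups, no covariate). The main fit used the deposited log2 values rather than counts. The recovered reads were used in an alternative, with voom. The fit was tested on simulated data for shCENPA1 against shNT on 14624 genes. It recovered 8 of 40 genes lowered by a log2 change of 0.5, 24 of 40 lowered by 1 and 31 of 40 lowered by 2. Positions are from GENCODE on GRCh38, and promoters from RefSeq (GRCh38.p14). Named genes were every regulator, every other E2F, DP, MYB and MuvB gene, the RB kinase list genes that passed, the 2 targets with the lowest and the 2 with the highest mean change of each target list, and the 2 genes nearest each regulator. CHGA, SYP and COL1A1 were named after their values were seen. The regulators and lists were chosen with earlier results of these data known. Alternatives were single lanes, 12 runs as replicates, other filters, constants added to RPKM (0.1 and 1), other scaling, no trend, only the compared groups, a replicate block, voom on recovered reads, each library left out and, added after seeing the data, removal of length and GC trends.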

Additional observations from a re-analysis of the deposited data

How the results depend on the processing

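The 10 regulators kept their direction against shNT under all alternatives run, and no call reversed direction. Over single regulators and alternatives, 182 of 199 calls for shCENPA1 against shNT and 194 of 199 for shCENPA2 against shNT stayed on their side of the threshold, as did 194 of 199 between the CENPA hairpins. Among regulators, the count for shCENPA1 ranged from 3 to 7 with 1 library left out, and that between the hairpins from 0 to 2. The latter was 1 with 12 runs as replicates, with voom on recovered reads and with the length and GC trends removed. With 12 runs as replicates, RB1 passed with both hairpins (adjusted p = 0.047 and 0.0459) and RBL2 with shCENPA2 (adjusted p = 0.0172), from limma. MYBL2 with shCENPA1 did not pass without the variance trend (adjusted p = 0.0601), nor RBL1 with shCENPA1 in lane 7 alone (adjusted p = 0.0801). E2F2 was removed by a filter at a mean log2 RPKM of 0 and so has no value there. The number of libraries, and for E2F2 also its low reads, limits the precision.

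Libraries of the same number were not treated as paired in the main fit. Across genes, the deviations of same-numbered libraries from their group means correlated at -0.064, -0.095 and -0.145. With 2 libraries per hairpin, these values cannot decide whether such libraries shared a culture or batch. With the replicate block, RBL1 with shCENPA1 was at an adjusted p of 0.0696, the other E2F, DP and MYB genes passing with shCENPA2 were 1, and the G1/S and G2/M targets passing between the hairpins were 0 and 0. The block moved no other count by over 1.5 times.

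A filter at a mean log2 RPKM of 0 left 6 of the 7 other E2F, DP and MYB genes and removed MYBL1 (group means 0.62, -0.66 and -0.68), so that their count was 0 for shCENPA1 and 1 for shCENPA2. Demanding 2-fold as well can lower a count by construction alone. The cause of the other changes that follow was not tested. For shCENPA1, the other E2F, DP and MYB count was 0 to 1 with 1 library left out. The MuvB count was 4 with 12 runs, 2 with only the groups compared or voom, 3 with the length and GC trends removed, and 0 to 2 with 1 library left out. The RB kinase list count was 3 without the trend and 2 to 5 with 1 library left out. Demanding 2-fold as well gave 0 MuvB genes, 0 of the RB kinase list and 16 G1/S targets. For shCENPA2, the other E2F, DP and MYB count was 1 in lane 7 or lane 8 alone, without the trend, beyond 2-fold and with 1 library of the groups compared left out (range 1 to 2). The MuvB count was 3 with 12 runs or with the length and GC trends removed, 2 with voom, 0 beyond 2-fold and 1 to 2 with 1 library left out. The RB kinase list count was 2 beyond 2-fold, 9 with the length and GC trends removed (7 lower) and 2 to 6 with 1 library left out. Between the hairpins, the RB kinase list count was 1 with 12 runs. The G1/S count was 2 in either lane, with median-centred libraries or voom, 9 with 12 runs, 8 with the length and GC trends removed, 0 without the trend, with only the groups compared and beyond 2-fold, and 0 to 3 with 1 library left out. The G2/M count was 12 with 12 runs, 9 with the length and GC trends removed, 1 with only the groups compared, 0 without the trend and beyond 2-fold, and 0 to 3 with 1 library left out.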
